A study of Mus musculus with 8 samples.

Results

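The genes described here were p21 (Cdkn1a) and the 7 other cyclin-dependent kinase (CDK) inhibitors of the mouse, Cdkn1b, Cdkn1c, Cdkn2a, Cdkn2b, Cdkn2c, Cdkn2d and Cdkn3, in kidneys of mice that had lost Sdhd, a membrane subunit of mitochondrial complex II. They were chosen by gene symbol, and 21 of the 45220 array features carried one of their 8 symbols, out of 22485 genes named on the array. These 21 features fell under 10 transcript accessions, and the spots of an accession were averaged, so each accession gave 1 value per array. Kidney RNA of male 129/SvJ mice was hybridised to 8 two-colour arrays, 4 for each of 2 groups. SDHD-ESR mice carried 1 floxed and 1 null allele of Sdhd (flox/-) together with a tamoxifen-activated Cre recombinase, Cre-ER(TM), of a promoter that the sources used here do not name. The +/- mice, littermates by the methods, had the same flox/- alleles and no Cre. The other channel of every array held 1 common pool of RNA from 8 +/+ mice, which were flox/+ without Cre. By the labels, all groups received tamoxifen, 100 µg/g daily for 4 days from 9 weeks of age, and kidneys were taken 1 week after the first injection, at 10 weeks. Each array held RNA of 2 mice, for 8 mice per group. Cre and the loss of Sdhd came together in SDHD-ESR and cannot be told apart, and the kidney was ground whole, so that fewer cells of a type and less RNA per cell cannot be told apart either.

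CDK inhibitors hold back the cell cycle. The CIP/KIP proteins, p21, p27 (Cdkn1b) and p57 (Cdkn1c), bind cyclin and CDK together, and p21 also binds the replication clamp PCNA. The INK4 proteins, made from Cdkn2a to Cdkn2d, bind CDK4 and CDK6 and keep D-type cyclins away, and Cdkn3 encodes a phosphatase that removes an activating phosphate from CDK2. The p21 gene is the classical target of p53 and is known to be switched on in renal tubules after injury.

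A sequence map of p21 and Cdkn3 is given as background. The p21 gene has 2 annotated transcription starts, and the 2 p21 accessions on the array could not be assigned to them. The 250 bases before each start were read from RefSeq promoter sequences (build GRCm38.p6). The starts lie 2790 bases apart on the plus strand of chromosome 17. Cdkn3, the member that lay lowest relative to +/-, is on the plus strand of chromosome 14. Capitals mark matches on either strand to the p53 half-site, the GC box GGGCGG, the TATA box TATAA, the CCAAT box and TTTGAA, the element known as CHR in genes of the late cell cycle. The windows are chr17:29090729-29090978, chr17:29093519-29093768 and chr14:46760291-46760540.
Cdkn1a start 1: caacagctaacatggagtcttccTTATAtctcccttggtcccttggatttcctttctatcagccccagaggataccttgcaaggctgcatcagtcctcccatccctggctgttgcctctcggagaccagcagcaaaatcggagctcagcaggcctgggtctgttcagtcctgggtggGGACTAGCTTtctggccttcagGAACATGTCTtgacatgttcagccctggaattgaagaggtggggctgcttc
Cdkn1a start 2: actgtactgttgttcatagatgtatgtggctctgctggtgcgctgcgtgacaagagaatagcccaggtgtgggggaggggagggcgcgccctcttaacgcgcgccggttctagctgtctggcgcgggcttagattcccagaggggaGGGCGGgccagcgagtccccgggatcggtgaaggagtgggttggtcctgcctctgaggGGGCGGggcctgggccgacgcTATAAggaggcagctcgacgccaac
Cdkn3: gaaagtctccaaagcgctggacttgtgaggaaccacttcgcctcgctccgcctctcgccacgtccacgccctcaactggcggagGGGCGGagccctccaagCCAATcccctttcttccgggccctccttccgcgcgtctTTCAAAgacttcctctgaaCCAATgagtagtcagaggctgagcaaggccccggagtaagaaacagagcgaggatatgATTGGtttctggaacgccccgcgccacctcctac

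The window before the first p21 start held 2 matches to the p53 half-site, whose first bases lie 73 and 51 bases before the start. It also held 1 TATA match, on the minus strand and near the end of the window far from the start. At least 1 p53 half-site match stood in 7.13% of all 32851 windows of this length, and 2 or more in 0.259%. The window before the second start held no p53 half-site match, 2 GC boxes and 1 TATA match, on the plus strand and close to the start. GC boxes stood in 32.7% of all windows and TATAA in 22.8%. Bases further upstream were not searched, and the first window itself lies upstream of the second start on the same strand. The Cdkn3 window held 3 CCAAT matches, 1 GC box and 1 TTTGAA match, which stood in 33.8%, 32.7% and 16% of all windows. No matches overlapped in these 3 windows. Of the other members, a p53 half-site match was present before Cdkn2d alone, 102 bases before its start, where it overlaps a GC box. Promoter windows were matched for 7 of the 8 genes, all but Cdkn1c. The tables do not say which start each p21 accession uses, so the windows were not assigned to the features. All of these are letter matches and not measured sites.

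Values are log2 ratios to the +/+ pool, each array centred on its own median. The deposited values run the other way and put Sdhd, the gene that was deleted, above the pool throughout, so every sign was turned. Sdhd then lay at -4.26, -3.65, -5.04 and -3.25 in SDHD-ESR replicates 1 to 4, against -0.79, -0.40, -0.92 and -0.93 in +/- replicates 1 to 4. The groups did not overlap (difference -3.29 ± 0.37, SE, n = 4 each, exact permutation p = 0.0286, the smallest that 4 against 4 arrays can give). Its adjusted p was 0.177 in limma, so the check on the deleted gene itself did not pass between groups. Of 31009 accessions tested there, 2 were called higher (Tex12 and Kynu) and 1 lower (Tmprss9) at an adjusted p of 0.05 or less. Against the pool Sdhd was called lower in SDHD-ESR, at -4.05 (limma, adjusted p = 0.000152), and not in +/-, at -0.76 (adjusted p = 0.0902). The signs were turned on this gene, so its direction is no independent check. Array medians before centring spanned -0.06 to 0.94 in SDHD-ESR and -0.19 to 0.41 in +/-. Without centring the median difference of all accessions was 0.28, against 0.02 with it, and the split of calls became 2 higher and 0 lower. Replicates 1 and 2 of each group shared slide 1 and replicates 3 and 4 shared slide 2. Each slide held both genotypes, while position on the slide went with genotype and cannot be told apart from it. The files hold ratios and no brightness, so the level of a gene in the kidney is unknown, and kidney identity could not be checked on levels.

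p21 was the member that stood apart. Its main accession, NM_007669, lay at 1.69, 1.94, 1.34 and 1.23 in SDHD-ESR replicates 1 to 4, against 0.18, -0.68, 0.05 and 0.66 in +/- replicates 1 to 4. All 4 SDHD-ESR arrays were above all 4 +/- arrays. The mean was 1.55 ± 0.33 in SDHD-ESR and 0.05 ± 0.56 in +/- (SD, n = 4 each), a difference of 1.49 ± 0.30 (SE), or 2.82-fold with a 95% interval of 1.74 to 4.56. The unadjusted p was 0.00128, the 82nd smallest of 31009 accessions, and the exact permutation p was 0.0286. After Benjamini-Hochberg adjustment over all accessions in limma p was 0.471, so the difference was not called. Under every alternative that gave a p-value, the adjusted p of this difference stayed between 0.367 and 0.782. Of all accessions, 2.78% lay higher in SDHD-ESR without overlap, and 3.64% were nominally higher, with an unadjusted p of 0.05 at most.

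Against the +/+ pool, p21 rose in SDHD-ESR kidneys, by 1.55 ± 0.21 on the log2 scale (SE, n = 4), or 2.93-fold (limma, adjusted p = 0.00473). In +/- kidneys the same accession differed from the pool by 0.05 ± 0.21 (limma, adjusted p = 0.871). The call in SDHD-ESR held without centring, with other ways to average spots and without any 1 array, with adjusted p between 0.00269 and 0.021. The background was high: 12.5% of accessions were called higher and 7.7% lower in SDHD-ESR against the pool, and 8.47% higher and 6.19% lower in +/-. Without centring, these calls numbered 363 higher and 233 lower in SDHD-ESR and 153 higher and 343 lower in +/-. Both comparisons share the single pool, whose own spread does not enter the test. They also share the dyes, Cy5 for the samples and Cy3 for the pool, without a dye swap. An effect of the dye on a gene thus cannot be told apart from a difference to the pool, here and for the other members.

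**Figure D1:**
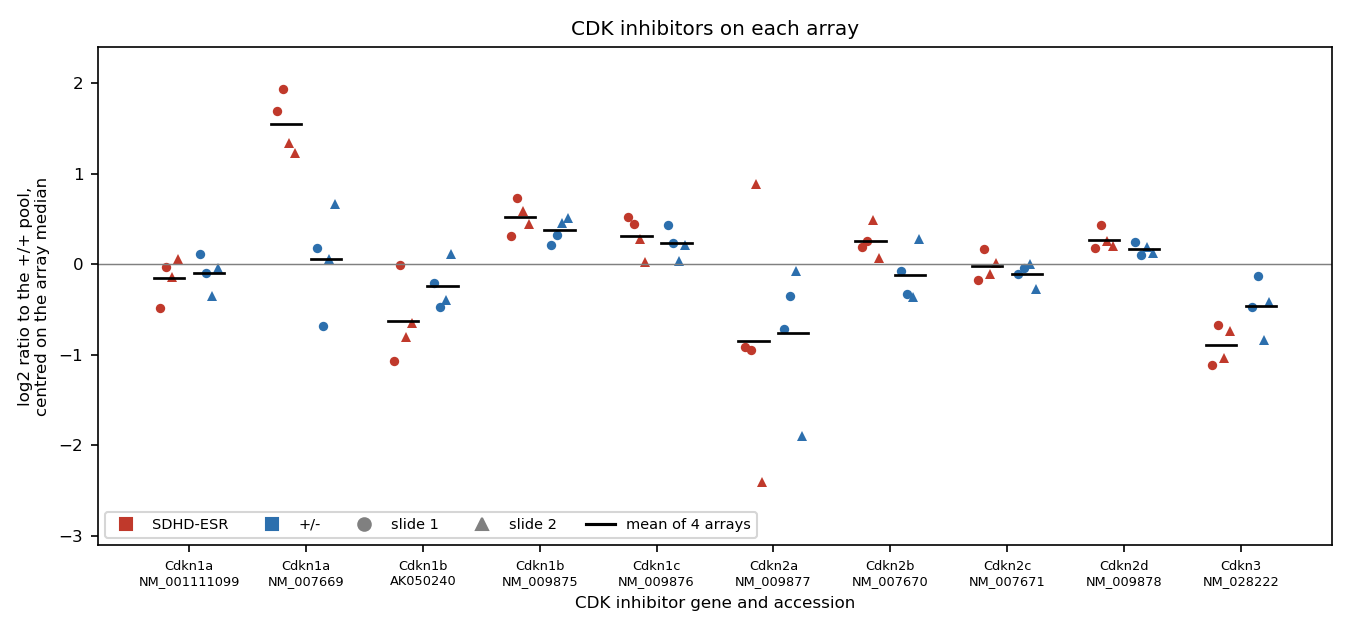
Log2 ratio to the +/+ pool (y axis, centred on the array median) of the 10 CDK inhibitor accessions (x axis), with SDHD-ESR arrays in red left of +/- arrays in blue, circles for slide 1, triangles for slide 2 and a black bar for the mean of 4 arrays. Only NM_007669 of Cdkn1a shows groups without overlap, with SDHD-ESR arrays from 1.23 to 1.94 and +/- arrays from -0.68 to 0.66.

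The p21 difference was 2.07 on slide 1 and 0.92 on slide 2, and whether the slides differed was not tested. SDHD-ESR arrays were higher on slide 1, at 1.69 and 1.94, than on slide 2, at 1.34 and 1.23. The +/- arrays lay at 0.18 and -0.68 on slide 1 and at 0.05 and 0.66 on slide 2, with the lowest on slide 1 and the highest on slide 2. With slide as a block the difference was the same and the limma adjusted p was 0.449.

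The accession NM_007669 was printed 10 times on each array, which gives the error of a single spot. The SD over the 10 spots was 0.0649 to 0.13 on the 8 arrays, against 0.33 between SDHD-ESR arrays and 0.56 between +/- arrays. The lowest of the 40 SDHD-ESR spots was at 1.11 and the highest of the 40 +/- spots at 0.89. Thus the spread of p21 was a spread between arrays, each of 2 mice, and repeated spots on an array are not replicates of the group.

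The second p21 accession, NM_001111099, was represented by 1 spot and gave another picture. It lay at -0.49, -0.02, -0.14 and 0.05 in SDHD-ESR, against 0.12, -0.09, -0.35 and -0.04 in +/-. The groups overlapped, with a difference of -0.06 (95% interval -0.42 to 0.30, limma adjusted p = 0.955). Subtracting this spot from NM_007669 on the same array needs no centring, and gave 2.18, 1.96, 1.48 and 1.17 in SDHD-ESR, against 0.06, -0.59, 0.40 and 0.71 in +/-. These did not overlap, and the gap between the accessions was larger in SDHD-ESR by 1.55 (exact permutation p = 0.0286, 0.0857 after adjustment over 3 such comparisons within a gene). Averaging all 11 p21 features gave a difference of 1.35, with an adjusted p of 0.479.

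**Figure D2:**
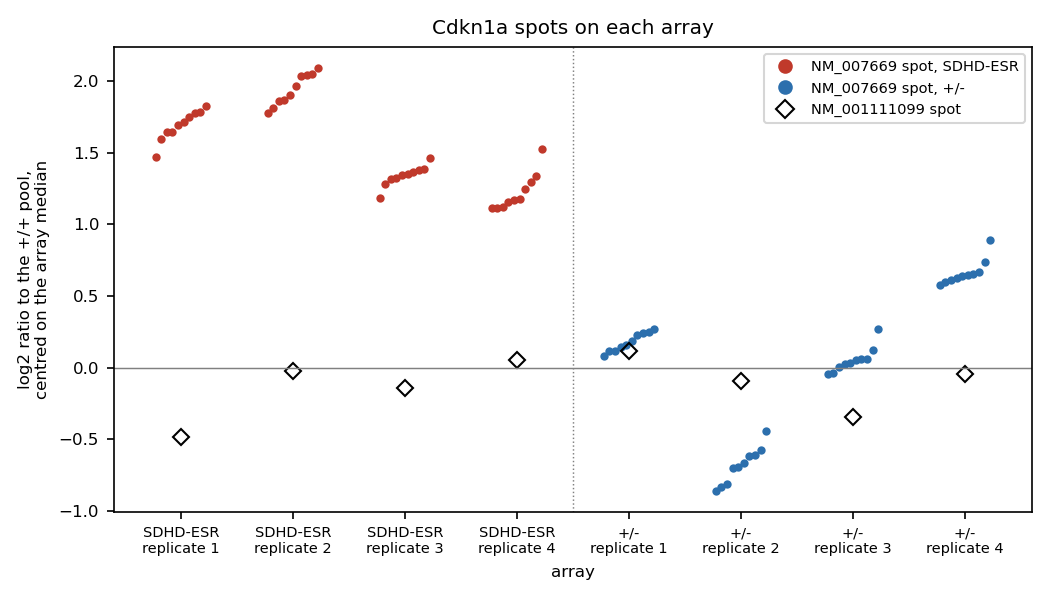
Every p21 (Cdkn1a) spot on each array (x axis, 4 SDHD-ESR arrays left of 4 +/- arrays), as log2 ratio to the +/+ pool centred on the array median (y axis), with the 10 spots of NM_007669 as filled points and the spot of NM_001111099 as an open diamond. All 40 SDHD-ESR points of NM_007669 are at 1.11 or above, and the diamonds lie between -0.49 and 0.12.

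Of the other CIP/KIP genes, p27 (Cdkn1b), known for holding cells in quiescence, was measured by 2 accessions that stood on opposite sides of the pool. NM_009875 lay at 0.31, 0.74, 0.59 and 0.44 in SDHD-ESR and at 0.21, 0.32, 0.46 and 0.52 in +/-. AK050240 lay at -1.07, -0.01, -0.80 and -0.64 in SDHD-ESR and at -0.21, -0.47, -0.40 and 0.12 in +/-. Neither accession separated the groups. The differences were 0.14 ± 0.12 (95% interval -0.15 to 0.43) for NM_009875 and -0.39 ± 0.24 (interval -0.96 to 0.18) for AK050240, with limma adjusted p of 0.867 and 0.827. On the same array NM_009875 exceeded AK050240 by 1.38, 0.75, 1.39 and 1.09 in SDHD-ESR, against 0.42, 0.79, 0.85 and 0.40 in +/- (difference 0.53, exact permutation p = 0.0857, 0.129 after adjustment over 3). The ranges of this gap overlapped.

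Against the pool NM_009875 rose in both groups, by 0.52 in SDHD-ESR (limma, adjusted p = 0.00976) and by 0.38 in +/- (adjusted p = 0.033). AK050240 fell in SDHD-ESR, by 0.63 (adjusted p = 0.0407), and differed by -0.24 in +/- (adjusted p = 0.357). The 2 accessions thus gave p27 opposite directions against the pool. All of these calls were lost without centring, where the adjusted p was 0.0978 and 0.447 for NM_009875 and 0.405 for AK050240 in SDHD-ESR. Leaving out 1 array ended the AK050240 call in 6 of 8 cases (SDHD-ESR replicate 1, 3 or 4 or +/- replicate 1, 2 or 3, adjusted p up to 0.117) and that of NM_009875 in +/- with the loss of any +/- array (adjusted p 0.0541 to 0.107).

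p57 (Cdkn1c), an imprinted gene known in the adult kidney as a podocyte gene, lay at 0.52, 0.44, 0.28 and 0.03 in SDHD-ESR, against 0.44, 0.24, 0.04 and 0.22 in +/-. The groups overlapped (difference 0.08, 95% interval -0.24 to 0.41, limma adjusted p = 0.914). Its ratio to the pool was 0.32 in SDHD-ESR (adjusted p = 0.0616) and 0.23 in +/- (adjusted p = 0.145). Without SDHD-ESR replicate 4 the first of these was 0.41 with an adjusted p of 0.043. None of 5 other podocyte markers differed nominally between groups, and their mean on an array ran from -0.21 to 0.44 in SDHD-ESR and from 0.06 to 0.39 in +/-.

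Among the INK4 genes, p15 (Cdkn2b), a known target of TGF-beta, had the largest difference. It lay at 0.19, 0.26, 0.49 and 0.07 in SDHD-ESR, against -0.08, -0.33, -0.36 and 0.28 in +/-. Replicate 4 of +/- was above 3 of the SDHD-ESR arrays, so the groups overlapped. The difference was 0.37 ± 0.17 (95% interval -0.02 to 0.77, limma unadjusted p = 0.0618, adjusted p = 0.746). Its 2 spots gave uneven values, and the second exceeded the first by 0.16 to 0.94 in SDHD-ESR and by -0.50 to 0.72 in +/-.

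Cdkn2a, which encodes p16 and ARF and lies next to Cdkn2b on chromosome 4, was measured poorly. On the 4 SDHD-ESR arrays it read -0.91, -0.95, 0.88 and -2.40, against -0.72, -0.35, -0.07 and -1.90 on the +/- arrays. The arrays of one group lay over 3 log2 units apart, and the 95% interval of the difference of -0.09 ran from -1.74 to 1.57. Of its 16 spot values, 4 were whole numbers and were left out. The measurement is too wide to show a difference of the size seen for p21.

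p18 (Cdkn2c) lay at -0.17, 0.17, -0.11 and 0.01 in SDHD-ESR and at -0.10, -0.04, 0.00 and -0.27 in +/-, a difference of 0.08 (95% interval -0.18 to 0.34, limma adjusted p = 0.897). p19 (Cdkn2d), the INK4d protein and not the ARF product of Cdkn2a, lay at 0.18, 0.44, 0.26 and 0.20 in SDHD-ESR and at 0.25, 0.10, 0.19 and 0.13 in +/-, a difference of 0.10 (interval -0.11 to 0.32, adjusted p = 0.867). Each was read from 1 spot whose values lay close together, and the intervals leave out a difference in ratio as large as that of p21. The brightness of these spots is unknown, so whether they could show such a difference is unknown too. Against the pool p19 rose in SDHD-ESR by 0.27 (limma, adjusted p = 0.0279) and differed by 0.16 in +/- (adjusted p = 0.118). The p19 call was lost without centring (adjusted p = 0.117) and without any 1 SDHD-ESR array (adjusted p 0.0505 to 0.0791).

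Cdkn3, whose mRNA is known to be abundant in dividing cells, was the lowest member in SDHD-ESR relative to +/-. It lay at -1.11, -0.67, -1.04 and -0.74 in SDHD-ESR, against -0.47, -0.13, -0.83 and -0.42 in +/-. In +/-, 3 arrays were above every SDHD-ESR array, and replicate 3 was within their range. The difference was -0.43 ± 0.18 (95% interval -0.84 to -0.01), with an unadjusted p of 0.0449, a limma adjusted p of 0.725 and an exact permutation p of 0.0857. Without centring the difference was -0.17 (unadjusted p = 0.607, limma adjusted p = 0.82). Of all accessions, 3.17% were nominally lower and 2.39% lower without overlap. Against the pool Cdkn3 fell in SDHD-ESR by 0.89 (limma, adjusted p = 0.0053) and in +/- by 0.46 (adjusted p = 0.0484). Without centring neither was called (adjusted p = 0.143 in SDHD-ESR and 0.474 in +/-). The +/- call was also lost in 7 of 8 cases when 1 array was left out, all but +/- replicate 2, with adjusted p up to 0.135.

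Counted together, 6 of the 10 accessions were higher and 4 lower in SDHD-ESR than in +/-, where 53.1% of all accessions were higher and 46.9% lower. None of the 10 passed at an adjusted p of 0.05 or less, against 0.00645% of all accessions called higher and 0.00322% called lower. Their median difference was 0.08, beside 0.02 for all 31009 accessions. The arrays separated the groups for 1 of the 10, against 5.17% of all accessions. Against the pool, 3 of the 10 were called higher and 2 lower in SDHD-ESR, and 1 higher and 1 lower in +/-. The shares over all accessions were 12.5% higher and 7.7% lower in SDHD-ESR, and 8.47% higher and 6.19% lower in +/-. Without centring, only the p21 call in SDHD-ESR remained among these.

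**Figure D3:**
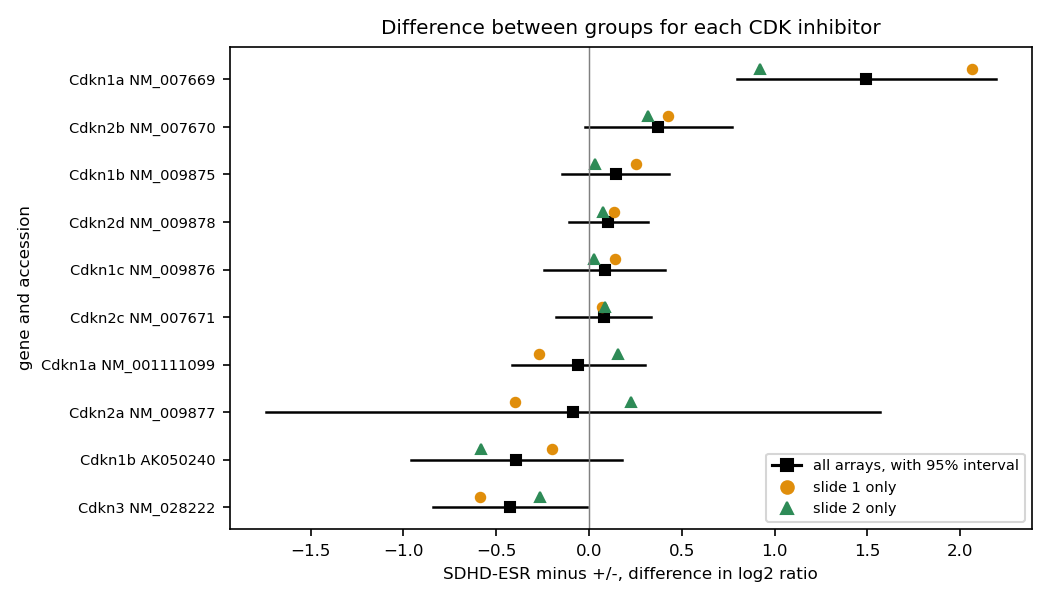
Difference in log2 ratio, SDHD-ESR minus +/- (x axis), for the 10 CDK inhibitor accessions (y axis), with squares and lines for the limma estimate and its 95% interval over all arrays, circles for slide 1 and triangles for slide 2. Cdkn1a NM_007669 is at 1.49 (0.80 to 2.19), and of the other intervals only that of Cdkn3 (-0.84 to -0.01) leaves out 0.

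The genes whose pattern over the 8 arrays was most like that of p21, by Pearson's r among 17655 genes, were Cbr1 (0.986), Pabpc1l (0.983), Setd4 (0.979), Zfp354a (0.974) and Selenon (0.971). The 8 arrays fall in 2 groups and share the pool, so any gene that differs between the groups correlates with p21, and these values are a description. Cbr1, a carbonyl reductase, lay at 1.02, 1.42, 0.99 and 0.95 in SDHD-ESR, against 0.34, 0.02, 0.36 and 0.60 in +/-. Pabpc1l lay at 1.17, 1.32, 1.08 and 0.80 in SDHD-ESR and at 0.29, -0.09, 0.20 and 0.42 in +/-. Like p21, both were highest on SDHD-ESR replicate 2 and lowest on +/- replicate 2, which their choice by correlation with p21 favours. Cbr1 and Setd4 are neighbours on chromosome 16. Their differences were 0.77 for Cbr1, 0.89 for Pabpc1l and 0.27 for Setd4, with limma adjusted p from 0.39 to 0.656. Within the family, r with p21 was 0.80 for Cdkn2b, 0.64 for Cdkn2d and -0.69 for Cdkn3. It was 0.38 for Cdkn1c, 0.18 for Cdkn2c, 0.02 for Cdkn1b and -0.19 for Cdkn2a.

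Next come the proteins on which the inhibitors act, each gene averaged over its features. Of 10 measured G1 and S phase cyclins, CDKs and Cdc25a, none passed at an adjusted p of 0.05 or less, and 2 were nominally lower. Over all 20519 named genes 52.4% were higher and 47.6% lower, 3.6% were nominally higher and 3.52% nominally lower, and 0.00975% and 0.00487% passed after adjustment. Ccnd1 (cyclin D1) lay at -0.13, -0.45, -0.31 and -0.18 in SDHD-ESR, against -0.00, 0.26, 0.25 and 0.27 in +/-, without overlap (difference -0.47 ± 0.11, limma adjusted p = 0.568). Ccnd2 (cyclin D2) differed by -0.33 and Ccna2 (cyclin A2) by -0.67, with adjusted p of 0.709 and 0.739. The list's median was -0.01, beside 0.01 for all named genes, and 5 genes were higher and 5 lower, but 7 higher and 3 lower without centring, with none nominally. Of 7 measured G2 and M phase genes, none passed and 2 were nominally lower (0 without centring). Ccnb2 (cyclin B2) lay at -0.94, -1.56, -0.50 and -0.59 in SDHD-ESR, against -0.41, 0.21, -0.24 and 0.03 in +/- (difference -0.79, adjusted p = 0.656), and Pkmyt1, a kinase that inhibits CDK1, differed by -0.37. Of 12 pocket proteins, E2F and DP factors, 6 were higher and 6 lower, with a median of -0.02, but 10 higher and 2 lower without centring. Rb1, the retinoblastoma protein gene, differed by 0.24 and Rbl2 by 0.35, while E2f2 differed by -0.34, with adjusted p from 0.722 to 0.803.

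Of 19 measured proliferation genes, 17 were lower and 2 higher in SDHD-ESR, with a median difference of -0.40. Of these, 7 were nominally lower and none passed after adjustment. The mean of the list ran from -0.71 to -0.48 on SDHD-ESR arrays and from -0.33 to 0.02 on +/- arrays. Mcm3, part of the replicative helicase, lay at -0.85, -0.71, -0.78 and -0.95 in SDHD-ESR, against -0.53, 0.05, -0.43 and -0.02 in +/- (difference -0.59, limma adjusted p = 0.595). Mcm5, of the same helicase, differed by -0.49 and Birc5, which encodes survivin, by -0.67. Without centring the list's median was -0.14, against 0.27 for all named genes, and 10 of the 19 were lower, 0 nominally.

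Among 20 measured genes of p53, its regulators and its targets other than p21, 13 were higher and 7 lower, and none passed. Of these, 2 were nominally higher. Gadd45a, a stress gene that p53 can induce, lay at 0.34, 0.39, 0.41 and 0.47 in SDHD-ESR, against -0.10, -0.32, -0.29 and 0.37 in +/- (difference 0.49, limma adjusted p = 0.665). Btg2, an antiproliferative gene, differed by 0.39 and Trp53inp1 by 0.27 (adjusted p = 0.712 and 0.747). The list's median was 0.16, and without centring 17 were higher and 3 lower, 0 nominally. The p53 gene Trp53 was not analysed here.

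Of 24 measured transcription factors that are known to act on the p21 gene by other routes, 14 were higher and 10 lower. Nominally, 5 of them were higher, and none passed. With 1 array left out, from 1 to 6 were nominally higher, with 1 when replicate 2 of either group was left out. Id1, an inhibitor of basic helix-loop-helix factors, lay at 1.49, 1.76, 0.67 and 0.51 in SDHD-ESR, against -0.09, -0.31, 0.18 and -0.23 in +/- (difference 1.22, limma adjusted p = 0.589). Like p21 it was higher on the SDHD-ESR arrays of slide 1 than of slide 2, but so were Stat3 and Cebpd of this list. The Id1 difference was 1.83 on slide 1 and 0.61 on slide 2, and that of Cebpd was 1.90 and 0.27. Stat3 lay at 0.85, 0.67, 0.37 and 0.04 in SDHD-ESR, against 0.03, -0.24, 0.02 and -0.01 in +/- (difference 0.53, adjusted p = 0.682). Klf6 differed by 0.40. The median of the list was 0.04, with 12 higher and 12 lower under quantile normalization, and 21 higher and 3 lower, with a median of 0.30, without centring.

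Of 12 measured genes of the ubiquitin ligases and the proteasome activator that remove p21 or p27, 5 were higher and 7 lower and none passed. Dtl encodes CDT2, the substrate receptor through which the CRL4 ligase degrades PCNA-bound p21. It lay at -2.41, -1.83, -1.34 and -2.16 in SDHD-ESR, against 0.25, -0.36, -0.75 and -0.57 in +/-, without overlap. The difference was -1.58 ± 0.29, or 0.335-fold, with an unadjusted p of 0.000874 and a limma adjusted p of 0.42. Cdc20, an activator of the anaphase-promoting complex, lay at -0.82, -1.40, -0.37 and -0.14 in SDHD-ESR, against 0.12, 0.32, 0.02 and 0.43 in +/- (difference -0.90, adjusted p = 0.655). Psme3, a proteasome activator subunit, differed by 0.25, but by -0.04 with quantile normalization. Without centring 9 of these ligase and proteasome genes were higher and 3 lower. Of 12 senescence-associated genes 5 were higher and 7 lower (8 higher and 4 lower without centring) and none passed. Igfbp5 differed by -0.43, Lmnb1 by -0.24 (0.02 without centring) and Glb1 by -0.18 (0.08 without centring).

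**Figure D4:**
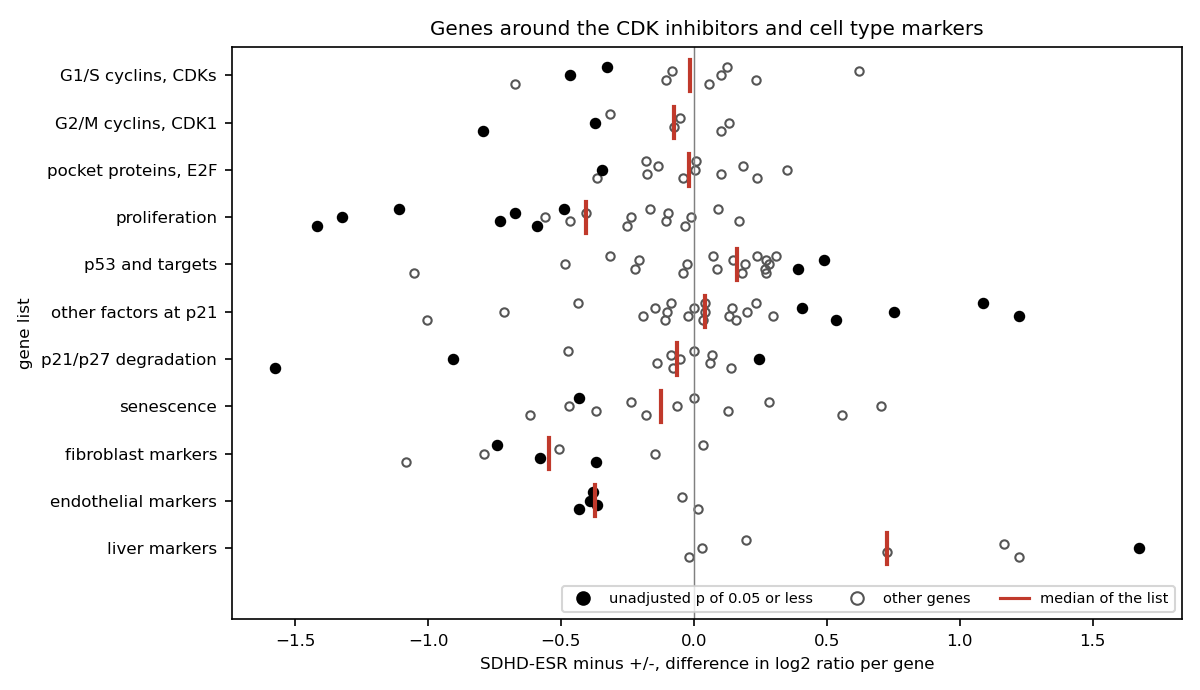
Difference in log2 ratio per gene, SDHD-ESR minus +/- (x axis), for 11 gene lists (y axis), with filled points for an unadjusted p of 0.05 or less, open points for other genes and a red bar for the median of each list. No gene shown passed at an adjusted p of 0.05 or less. The medians were -0.40 for proliferation genes, -0.54 for fibroblast markers, -0.37 for endothelial markers and 0.73 for liver markers.

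No marker of other cells passed after adjustment, and their values are given here beside those of p21. Of 8 fibroblast markers 7 were lower in SDHD-ESR, 3 of them nominally, and their mean ran from -1.13 to -0.57 in SDHD-ESR and from -0.45 to -0.20 in +/-. Of 6 endothelial markers 5 were lower, 4 of them nominally, with means from -0.20 to 0.01 in SDHD-ESR and from 0.00 to 0.32 in +/-. Without centring 6 of the 8 fibroblast and 4 of the 6 endothelial markers were lower, with medians of -0.28 and -0.11, and 0 of either list nominally. Of 10 leukocyte markers 8 were lower with centring but 8 were higher without it, and the centred means ran from -0.73 to -0.29 in SDHD-ESR and from -0.46 to -0.20 in +/-. Of 7 liver markers 6 were higher (7 without centring), 1 of them nominally, with means from -1.48 to -0.23 in SDHD-ESR and from -1.96 to -1.44 in +/-, so that the mean of the list stood below the pool on all arrays. Fgb, a fibrinogen chain, lay at -0.54, -1.49, -1.67 and -0.73 in SDHD-ESR, against -2.72, -3.81, -2.47 and -2.12 in +/-, without overlap (difference 1.67, unadjusted p = 0.00452, limma adjusted p = 0.589). Apoa1 differed by 0.73 and Ahsg by 1.17 (adjusted p = 0.751 and 0.83). Albumin (Alb), named after its values were seen, lay at -3.51, -3.29, -1.57 and 0.06 in SDHD-ESR, against -3.62, -3.26, -3.79 and -2.53 in +/-. SDHD-ESR replicate 4 was at the level of the pool for albumin and was the lowest of the SDHD-ESR arrays for p21, and without it the p21 difference was 1.60. Of 6 tubular injury markers 3 were higher and 3 lower. Lcn2, a secreted marker of tubular damage, lay 0.56 higher (limma adjusted p = 0.688). Vim differed by -0.29 and Krt18 by 0.30 (limma adjusted p = 0.739 and 0.841). All 6 proximal tubule markers had a feature within 0.01 of 0 on at least 2 arrays before centring, so their centred values follow the array medians and no direction is given for them. Of 9 distal markers 6 were higher, with a median of 0.12, and all 9 were higher without centring. Of 4 fat markers 3 were lower, and 5 of 5 adrenal markers were higher, none nominally. Without centring 2 of the fat markers were lower. The part of these cells in the values of the CDK inhibitors was not tested.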

How the data were processed

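Per the labels and the study's methods, the authors labelled 200 ng of RNA per array with Cy5 (pool with Cy3, no dye swap), scanned them with a GenePix instrument and deposited log ratios. How background and arrays were normalized is not given in the sources used here. In the deposited values base 2 was read from dim spots (5628 values at the log2 of a ratio of small whole numbers, 4 for the natural log and 2 for base 10). Whole numbers, 9.05% of values and up to 65024, cannot all be log ratios and were set missing. The table's rows were placed on a scanner grid of 532 by 85, inferred from the values: repeated spots of 386 accessions then had an intraclass correlation of 0.714, against -0.005 and 0.01 for the plain and reversed order (members left out). Spots of an accession were averaged.

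With limma 3.58.1 (R 4.3.3), 1 mean per group was fitted to each accession with at least 3 values per group (prior degrees of freedom 1.43), adjusted by Benjamini and Hochberg and called at 0.05. Each group was also set against 0, the pool. Tests were two-sided. The number of arrays limits precision, and p-values measure the spread between arrays. On simulated data for SDHD-ESR against +/-, 33.5%, 66% and 79.5% of 200 changed accessions of 31009 were recovered at log2 changes of 1, 2 and 3. There 200 changes were made at once on normal noise, which eases the adjustment. The data themselves gave 2 calls higher and 1 lower, so these shares may overstate what could be recovered in them. Alternatives were no centring, quantile normalization, blocks, other ways to average or filter, the methods' t-test and leaving out arrays. All members were named, with Sdhd, the 5 genes most like p21 and up to 3 genes of smallest p per list described gene by gene. Cebpd was named in addition to the 3 of its list. Marker lists were otherwise given as counts, and Alb was named after its values were seen. The members and lists were chosen with earlier results of these data known.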

Additional observations from a re-analysis of the deposited data

Results flagged for a closer look

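None of the CDK inhibitors had an array set apart from the other 3 of its group. Of 137 sets of 4 arrays looked at, for the genes named above and the other named marker genes, 7 had 1 array whose gap to the next exceeded Dixon's 95% critical value, where chance gives about 1 in 20. In SDHD-ESR these were Cbr1 on replicate 2 (1.42, against 0.95 to 1.02 on the others), Adgre1 on replicate 2 (-1.33, against -0.72 to -0.66), Col1a2 on replicate 2 (-1.56, against -0.78 to -0.65) and Th on replicate 3 (0.24, against 0.08 to 0.09). In +/- they were Ccnd1 on replicate 1 (-0.0029, against 0.25 to 0.27), Stat3 on replicate 2 (-0.24, against -0.01 to 0.03) and Krt18 on replicate 2 (-0.39, against 0.10 to 0.19).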

How the results depend on the processing

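The p21 difference of 1.49 (NM_007669) kept its sign under all 21 alternatives. It was called in none that gave a p-value, where every spot as a row gave the median over spots. The difference was 2.07 on slide 1 only and 0.92 on slide 2 only, without a p-value, and 1.25 to 1.70 without 1 array. Its rise against the pool in SDHD-ESR was called in all 11 alternatives, at 1.42 to 1.66 without 1 array. In +/- its ratio to the pool ran from -0.15 to 0.30 without 1 array, turning sign, to -0.15, without +/- replicate 4. Accessions called higher numbered 2, but 1 with quantile normalization, 5 with every spot as a row and 1 to 2 without 1 array; those called lower numbered 1, but 0 without centring and 1 to 2 without 1 array. Replicate numbers did not pair the samples (r between same-numbered arrays -0.00 to 0.04), and the replicate block left 0 higher and 0 lower, with 1224 and 1094 before adjustment, and p21 at an adjusted p of 0.591. Against the pool, calls without centring fell to 363 higher and 233 lower in SDHD-ESR and 153 higher and 343 lower in +/-. Without 1 array they ran from 2004 to 3501 higher and 1236 to 2093 lower in SDHD-ESR, and from 661 to 2283 higher and 654 to 1561 lower in +/-. With every spot a row, +/- had 3934 higher and SDHD-ESR 5672 higher.

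Most signs that turned belonged to small differences. However, NM_009875 of Cdkn1b, called at 0.52 against the pool in SDHD-ESR, turned when averaged with AK050240 over the gene. AK050240 in +/-, at -0.24 against the pool, turned in the same way. Without centring NM_001111099 of p21 was at 0.20 between groups and 0.17 against the pool in SDHD-ESR, Cdkn2a at 0.17 between groups and Cdkn2c at 0.29 against the pool in SDHD-ESR. Averaged over the gene, Cdkn1b was at -0.12 between groups, -0.056 against the pool in SDHD-ESR and 0.068 in +/-. Without 1 array, NM_001111099 ran from -0.14 to 0.055 and Cdkn2a from -0.66 to 0.43 between groups, and Cdkn2c from -0.088 to 0.026 against the pool in SDHD-ESR. With small whole numbers kept, Cdkn2a was at -0.87. The causes were not tested.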
